A study of Mus musculus with 18 samples.

Results

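Broad H3K27me3 domains that were present in every library were examined across 2 stages and 2 Ezh2 genotypes of the mouse medial ganglionic eminence (MGE), the ventral forebrain zone that produces many cortical interneurons. The overlapping or touching autosomal intervals of all 12 libraries were joined into 15540 union regions. Of these, 2367 held an interval in every library, and the 646 of them whose union width was at least 20 kb are called broad domains here. The members were thus chosen by the called intervals and their width. Each of the 646 was tested, since none could be lost to a filter on low counts. Another 99 union regions reached 20 kb without an interval in every library, and the 1721 remaining regions with an interval in every library were narrower. The number, the width and the presence in all 12 libraries are therefore descriptions.

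The mark was mapped in bulk tissue with CUT&Tag, where an antibody directs a transposase to the mark so that nearby DNA is tagged and sequenced. By the cross in the labels, every embryo, WT included, carried 1 Nkx2.1-Cre allele (C/+) and 1 Ai9 reporter allele (F/+), and WT and KO differed in Ezh2, which was floxed in both parents. The 4 groups were E12.5 WT, E12.5 KO, E15.5 WT and E15.5 KO, with 3 libraries each, and 6 further samples with a heterozygous deletion, out of 18, were left aside. At E12.5 the whole MGE was taken, and at E15.5 the MGE was dissected under fluorescence for the Cre-labelled tissue, with embryos of 1 genotype pooled where applicable. Deletion therefore needs cells that have expressed the Nkx2-1 driven Cre, other cells of the dissected tissue would keep Ezh2, and in bulk tissue fewer cells with the mark cannot be told apart from less mark per cell. The number of embryos per library is not given in the sources used here, so p-values measure the spread between these libraries. No library had an interval over Ezh2 itself (chr6:47530274-47595270, GRCm38), so the lists carry no check of the deletion.

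EZH2 is a catalytic subunit of Polycomb repressive complex 2 (PRC2), which trimethylates lysine 27 of histone H3, and EZH1 can take the same place. PRC2 is recruited mainly to CpG-rich start sites of silent developmental genes, and the mark spreads from there over the neighbouring chromatin until it covers whole gene clusters in some places. Hox clusters in the forebrain are the classic example, since they stay silent there and are covered from end to end.

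Several sequences show what these domains lie over. The first set is the 250 bases before the start site of 4 genes inside broad domains, from RefSeq (GRCm38.p6), 5′ to 3′ on the strand of the gene, with every CG dinucleotide in capitals. Hoxa9 (minus strand, chr6:52227371-52227620) lies in the domain with the highest level and holds 3 CG, and Nkx2-1 (minus strand, chr12:56536909-56537158), the gene that specifies the MGE, holds 9. Foxp4 (minus strand, chr17:47924633-47924882) holds 27 and Emx2 (plus strand, chr19:59458440-59458689) holds 24, and with library sizes by depth the domains of both were lower in the KO at both stages.
Hoxa9: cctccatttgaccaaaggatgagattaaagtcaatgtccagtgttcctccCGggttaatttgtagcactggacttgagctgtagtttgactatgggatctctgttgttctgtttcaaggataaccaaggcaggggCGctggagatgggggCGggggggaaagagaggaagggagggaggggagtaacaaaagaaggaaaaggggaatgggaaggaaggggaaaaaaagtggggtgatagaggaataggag
Nkx2-1: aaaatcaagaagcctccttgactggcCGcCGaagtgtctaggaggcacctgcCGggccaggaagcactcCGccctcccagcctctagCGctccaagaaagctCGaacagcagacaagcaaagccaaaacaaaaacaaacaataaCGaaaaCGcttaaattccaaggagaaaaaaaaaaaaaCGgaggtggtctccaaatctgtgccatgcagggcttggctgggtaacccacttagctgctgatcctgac
Foxp4: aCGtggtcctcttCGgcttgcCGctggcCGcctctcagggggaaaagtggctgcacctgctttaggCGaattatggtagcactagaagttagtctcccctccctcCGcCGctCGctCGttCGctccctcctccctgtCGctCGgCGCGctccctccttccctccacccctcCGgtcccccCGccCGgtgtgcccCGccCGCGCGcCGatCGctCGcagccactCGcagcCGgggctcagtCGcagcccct
Emx2: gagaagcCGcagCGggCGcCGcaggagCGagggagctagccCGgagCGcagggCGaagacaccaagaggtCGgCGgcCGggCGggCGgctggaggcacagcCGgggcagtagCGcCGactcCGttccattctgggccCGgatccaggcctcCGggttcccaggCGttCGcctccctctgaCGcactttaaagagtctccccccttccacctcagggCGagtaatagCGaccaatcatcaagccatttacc
Over 20084 promoters of autosomal protein-coding genes, the same 250 bases held a median of 10 CG, and 93.7% held at least 1. At least as many as in Foxp4 were found in 11.5% of them, as in Emx2 in 16.2%, as in Nkx2-1 in 54.1% and as in Hoxa9 in 78.0%. CG reads the same on both strands, so 1 search covers both. Over the whole promoter windows of 300 bases, the median ratio of observed to expected CG was 0.677 for the 643 promoters inside broad domains, 0.690 for the 1331 inside the narrower regions found in every library, and 0.561 for the 18110 outside both.

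The second set is microRNAs encoded inside broad domains, with the seed (bases 2 to 8) in capitals. In all, 40 microRNA genes lay in 31 of the 646 domains (4.80%, against 1.51% of the 1721 narrower regions), and 71 mature sequences in 30 domains were matched to RefSeq. These shares are not corrected for width, with a median of 31.2 kb for the domains and 9.6 kb for the narrower regions. By total width, 31 domains with a microRNA gene lay in 24.4 Mb and 26 such narrower regions in 17.8 Mb. The Hox domains carried the miR-10 and miR-196 families, whose members share a seed across clusters: miR-10a in the Hoxb domain, miR-10b in Hoxd, miR-196b in Hoxa, and miR-196a in both Hoxb and Hoxc.
miR-10a-5p: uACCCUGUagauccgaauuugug
miR-10b-5p: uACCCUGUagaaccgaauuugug
miR-196a-5p: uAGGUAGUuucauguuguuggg
miR-196b-5p: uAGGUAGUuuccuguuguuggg
miR-132 and miR-212 share a seed as well and lay in the Hic1 domain, which gave 123 to 139 depth-scaled counts per kb as group means. miR-9, an abundant microRNA of the developing brain, is encoded at 3 places, and the domains at or beside all 3 are described below with the genotype results.
miR-132-3p: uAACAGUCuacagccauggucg
miR-212-3p: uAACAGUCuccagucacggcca
miR-9-5p: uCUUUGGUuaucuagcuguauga

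The 646 domains spanned 24.4 Mb in all, with a median width of 31.2 kb and a range from 20 to 299 kb. The widest was the Hoxc cluster at 299 kb (chr15:102894001-103193000), followed by Hoxa at 189.4 kb, Hoxb at 160.8 kb, Pax2 at 143.8 kb and Hoxd with Evx2 at 133.4 kb. Lyl1 (126.4 kb), Agap1 (117.2 kb), Uncx and Dbx1 (115.2 kb each) and Ebf3 (114.8 kb) completed the 10 widest. There were 108 domains of 50 kb or more and 16 of 100 kb or more. At the threshold, the domains of Nhlh2, Tmem132d and Rasgrf1 measured 20 kb and the excluded regions of Dtnb, Gpr132 and Car15 19.8 kb. Their mean levels of 48.3, 10.7 and 35.3 depth-scaled counts per kb inside overlapped those of 6.21, 34.6 and 23.4 outside.

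A depth-scaled count is the deposited count of the intervals in a domain, divided by the depth of the library relative to the mean of the 12, and it is given per kb of union width. Averaged over the 12 libraries, it had a median of 32.0 per kb and ranged from 1.90 to 301. The highest were the Hoxa domain at 301, Hoxd at 271, Hmx3 and Hmx2 (homeobox genes of the inner ear and hypothalamus) at 256, Hoxb at 242 and Pax6, the cortical and eye regulator, at 229. The lowest were 1 of the 4 Prdm16 domains at 1.90, Atp8b3 at 2.31, Col16a1 at 2.33, Fto at 2.72 and 1 of the 2 Foxp4 domains at 2.76. The plot of width against level shows that domains of the same width differed in level by over an order of magnitude.

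**Figure D1:**
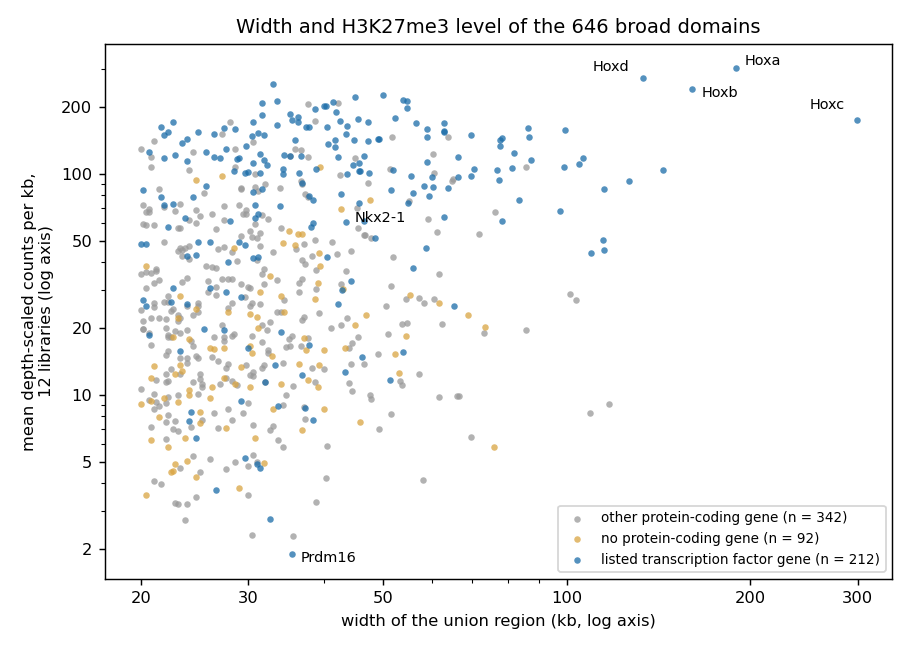
Width of each of the 646 broad domains (kb, log axis) against its mean depth-scaled counts per kb over 12 libraries (log axis), coloured by gene content. The 212 domains with a listed transcription factor gene range from 1.90 to 301 counts per kb with a median of 102, above the median of 32.0 of all domains, and the 4 Hox clusters stand at the upper right.

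The length covered within the domains differed widely between libraries. The recovered depth, the mean count per window of 200 bp, ranged from 0.0751 in E15.5 WT 1 to 0.698 in E12.5 WT 2. E12.5 WT 2 covered 94.8% of the summed domain width with intervals, and E15.5 WT 1 covered 48.5%. Of the 122125 windows, 39.2% were covered in all 12 libraries, 29.6% in 6 to 11, 23.6% in 2 to 5 and 7.61% in 1, and 64.1% of the last were covered in E12.5 WT 2. At least 20 kb was covered in every library in 177 domains (27.4%), and 12 domains had no window shared by all 12. Without E12.5 WT 2 the same rule gave 549 domains, the smallest number when 1 library was left out. A count outside a called interval is not in the lists, so each change reported here combines the length called with the counts within it.

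**Figure D2:**
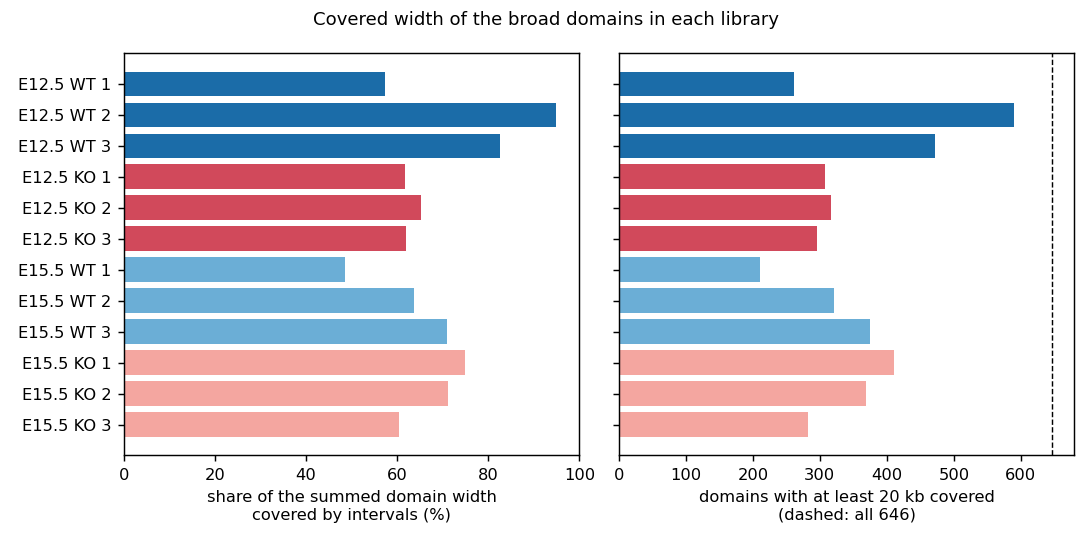
For each library, the share of the summed width of the 646 domains that its intervals cover (left, %), and the number of domains with at least 20 kb covered (right, dashed line at 646). E12.5 WT 2 reaches 94.8% and 590 domains, and E15.5 WT 1 reaches 48.5% and 211.

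A small part of the genome carried most of the counts. The broad domains held between 70.8% (E12.5 WT 2) and 83.0% (E12.5 KO 2) of the autosomal counts in intervals, and between 33.0% and 56.3% of the covered bases. Of the 646, 554 overlapped a protein-coding gene, 368 held the start of at least 1, 186 lay within genes without a start, and 92 (14.2%) overlapped none. The lncRNA share was 49.5% (320 domains), against 27.1% of the narrower regions, without correction for width. By total width, 320 domains with a lncRNA lay in 24.4 Mb and 466 such narrower regions in 17.8 Mb.

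Listed transcription factor genes lay in a larger share of the broad domains than of the narrower regions. A gene of the transcription factor lists lay in 212 domains (32.8%), against 70 of the 1721 narrower regions (4.07%), and of all 20661 autosomal protein-coding genes 4.39% lay in a broad domain. The 212 domains were out of 24.4 Mb in all and the 70 narrower regions out of 17.8 Mb. All 39 Hox genes, all 12 LIM homeodomain genes, all 6 Dlx genes and all 5 Gata genes were inside. Of the Pax genes 8 of 9 were inside (not Pax4), of the Iroquois and sine oculis homeobox genes (the families of Irx3 and Six3) 10 of 12, of other homeobox genes 60 of 75, of the NK homeobox genes 10 of 14, of the AP-2, Ebf and nuclear receptor factors 21 of 30 and of the T-box genes 10 of 15. Forkhead genes (18 of 32) and Zic, Gli and other zinc finger genes (21 of 38) were inside in similar shares. bHLH factors (20 of 49) and Sox genes (5 of 15) had smaller shares inside.

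Shares of the signalling lists differed. Of the Wnt list 15 of 42 genes lay in broad domains, 12 of them ligands, with the receptors Fzd7 and Fzd10 and the agonist Rspo1. Of the hedgehog list 6 of 11 were inside (the ligands Shh, Ihh and Dhh and the coreceptors Boc, Cdon and Gas1), of the BMP and TGF-beta list 6 of 31 and of the FGF list 5 of 28. Channels and neurotransmitter receptors had 6 of 46. The cell cycle inhibitors Cdkn2a, Cdkn2b and Cdkn2c, targets of PRC2 in many tissues, were inside, and the other 7 genes of the list of inhibitors and D cyclins were not. None of the 18 autosomal housekeeping genes lay in a broad domain or in a narrower region found in every library.

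Markers of the MGE itself were among the covered genes. Of the regulators of the ventral telencephalon 17 of 27 lay in broad domains, including Nkx2-1, Lhx6, Lhx8, Dlx1, Dlx2, Dlx5, Dlx6, Gsx1 and Gsx2. Of the regulators of cortical glutamatergic neurons, genes of the neighbouring dorsal forebrain, 11 of 15 were inside. The Pax6 domain gave 247 ± 46.4 counts per kb in E12.5 WT (SD, n = 3), and the Nkx2-1 domain 29.0 ± 7.64. Regulators of mesoderm and endoderm, which should be silent in brain, had 16 of 20 inside, at a median of 151 counts per kb over their 15 domains.

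The Hox domains were among those with high levels. In the Hoxa domain (chr6:52143001-52332400) the depth-scaled counts per kb were 384, 271 and 270 in E12.5 WT, 304, 396 and 297 in E12.5 KO, 322, 295 and 285 in E15.5 WT, and 274, 293 and 220 in E15.5 KO. The groups overlapped at both stages. Its log2 change in the KO at E12.5 was 0.11 ± 0.13 (SE, adjusted p = 0.461), and that at E15.5 was -0.20 ± 0.13 (adjusted p = 0.882), by edgeR's quasi-likelihood test with Benjamini-Hochberg adjustment over 2367 regions. None of the 5 Hox domains (Hoxb13 lies in one of its own) was called between the genotypes at either stage by depth or with TMM factors. At E12.5 Hoxb13 was called with DESeq2, and Hoxa and Hoxb without E12.5 WT 1, and with TMM factors the E12.5 change of Hoxa was 0.64 (adjusted p = 0.236). With stage in KO, 4 of the 5 were lower at E15.5 by depth, and of these Hoxb13 (-0.59 ± 0.14, adjusted p = 0.000759) was called with both scalings. The intervals of these domains covered between 70.8% and 100% of the union width, apart from the Hoxb13 domain.

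At E12.5 the deletion was compared with WT to ask where the mark was lost. With library sizes in proportion to depth, 228 of the 646 broad domains were lower in the KO (35.3%) and 14 higher (2.17%), against 39.6% and 0.591% of all 2367 regions. With TMM factors, which centre the bulk of the regions, 67 were lower and 58 higher, against 7.44% and 4.01% of all regions, and with DESeq2 59 and 83, against 6.46% and 5.83%. TMM moved the median log2 change of all regions from -0.58 to -0.04, and that of the broad domains from -0.35 to 0.19, so the domains' median stood above that of all regions under both. The scaling thus decides how many domains are called in each direction, and unless stated otherwise the E12.5 changes named below were called in the same direction with both: 67 lower and 14 higher, against 7.44% and 0.591% of all regions. The count of lower domains by depth also rested on single libraries, at 91 without E12.5 WT 2, 151 without WT 3, 122 without KO 1 and 134 without KO 2. The count of higher domains was 7 without WT 3, 23 without KO 1, 4 without KO 2 and 6 without KO 3.

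The change at E12.5 went with the level of the domain. That level is the mean over all 12 libraries, the E12.5 libraries included, so level and change share values. Among the 162 domains with the lowest counts per kb, 76 were lower and 4 higher, and 35 and 4 held with both scalings. Among the 162 with the highest, 8 were lower and none higher, none held with both scalings in either direction, and the median log2 change was -0.14 by depth and 0.39 with TMM. The intervals of E12.5 WT covered a median of 76.0% of the width of the 67 lower domains and those of E12.5 KO 36.5%, so a shorter called length went with the lower counts. Domains with at least 20 kb covered in every library had 26 of 177 lower by depth, and 6 with both scalings.

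**Figure D3:**
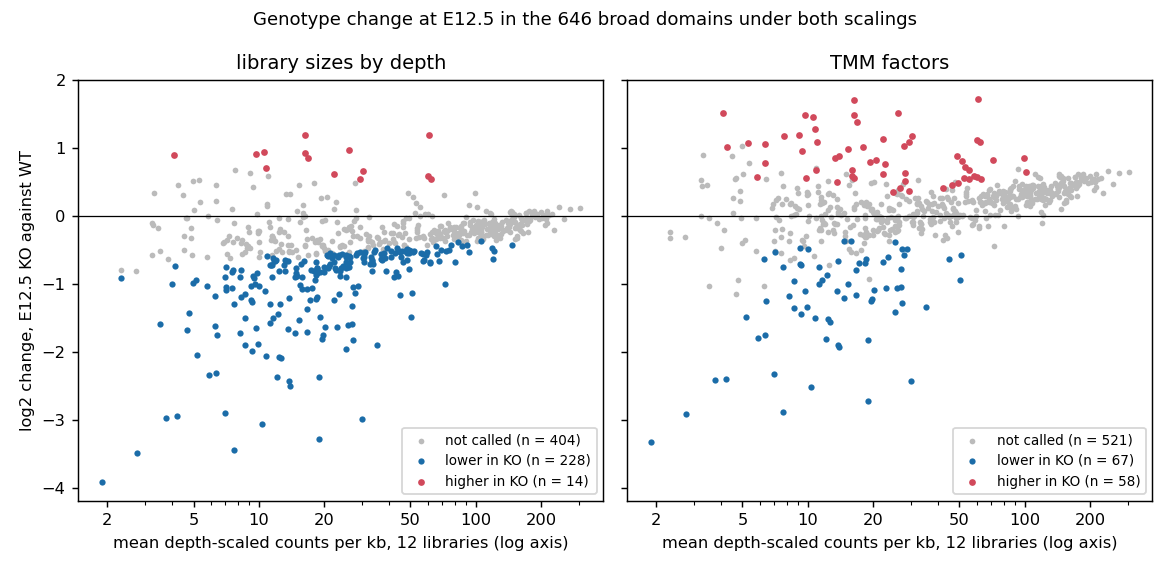
Log2 change in E12.5 KO against WT of each broad domain (edgeR fit) against its mean depth-scaled counts per kb (log axis), with library sizes by depth (left) and with TMM factors (right). Called domains (adjusted p below 0.05) are coloured. The mean is over all 12 libraries, so it includes the E12.5 KO values. With depth 228 are lower and 14 higher, with TMM factors 67 and 58, and the large decreases sit at low and middle levels in both panels.

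Of the 212 domains with a listed transcription factor gene, 39 were lower at E12.5 by depth (18.4%, against 35.3% of all broad domains) and 12 with both scalings (5.66%, against 10.4%). Among the decreases, over Foxp4, a forkhead factor of progenitors, the domain with the start site (chr17:47894201-47937000) gave 26.8, 46.1 and 30.7 counts per kb in WT and 3.00, 4.79 and 5.29 in KO. Every KO library lay below every WT library, and the log2 change was -2.98 ± 0.22 (SE, adjusted p = 4.19e-25 by edgeR, -2.43 with TMM). The second Foxp4 domain, over the gene body (chr17:47860401-47893000), changed by -3.49 ± 0.41, from a mean of 4.17 ± 2.18 to 0.389 ± 0.218 (SD, n = 3). The intervals of the 3 KO libraries covered 2.45% to 15.3% of it, against 24.5% to 91.4% in WT.

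Gli2, a transcriptional effector of hedgehog signalling, had 3 broad domains over it, all 3 lower with both scalings. The one that changed most (chr1:118966201-119004600) gave 5.71, 16.6 and 11.9 counts per kb in WT and 0.893, 0.994 and 1.28 in KO, a log2 change of -3.44 ± 0.31 (adjusted p = 4.41e-19 by edgeR). The groups did not overlap, and the WT values followed the depth of the libraries. Those of the Foxp4 start-site domain and of the Tgfbr3, Smyd3 and Prdm16 domains described below were in the same order. Depth relative to the mean was 0.451, 2.69 and 1.85 in E12.5 WT 1, 2 and 3, and 0.817 to 1.05 in the E12.5 KO libraries. The part of depth in these changes was not tested. Boc, a hedgehog coreceptor, changed by -2.44 (adjusted p = 1.02e-15), and Gas1, another, by -1.13 (adjusted p = 3.76e-05). The Shh domain, over the ligand, went the other way at 0.54 (adjusted p = 0.0261), with 41.9, 55.2 and 48.5 in WT and 51.3, 77.4 and 83.6 in KO, groups that overlapped. The Shh call held in 12 of 16 alternatives. Of the 6 domains of the hedgehog list, 2 were lower and 1 higher with both scalings.

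Tgfbr3, the TGF-beta coreceptor betaglycan, fell from 9.94, 26.2 and 18.5 counts per kb in WT to 1.40, 1.82 and 2.42 in KO (chr5:107227801-107278600). The groups did not overlap, and the log2 change was -3.28 ± 0.25 (adjusted p = 5.97e-25 by edgeR, -2.72 with TMM). Smyd3, a SET-domain methyltransferase, fell from a mean of 14.9 ± 6.78 to 1.78 ± 0.837 (log2 change -3.06 ± 0.29), and a second Smyd3 domain by 2.37 on the log2 scale. Rora, an orphan nuclear receptor, changed by -2.97 ± 0.38 and Zfhx3, a zinc finger homeobox factor, by -2.95 ± 0.34. Prdm16, a zinc finger factor of neural progenitors, had 4 broad domains, of which 2 were lower with both scalings and 0 higher. The domain at chr4:154540001-154575400 had the largest change at -3.91 ± 0.42, from 1.50, 6.66 and 5.01 in WT to 0.519, 0.216 and 0.181 in KO. This domain also had the lowest level of all and was covered over 1.69% to 12.4% of its width in KO, against 18.6% to 100% in WT. Outside E12.5 WT no library covered more than 31.6% of its 35.4 kb, so its width rests on the group where it is high. Its decrease over that width is thus a description and no separate evidence.

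Other decreases with both scalings, named after their values were seen, included 1 of the 2 domains each of Ebf3 (-2.05), Ebf1 (-1.44), Meis1 (-1.75) and the R-spondin receptor Lgr5 (-1.73), and those of the Wnt receptor Fzd7 (-1.96), Atoh8 (-1.72), the neurotrophin Bdnf (-1.49) and Fezf1 (-1.13). The other domain of each of the first 4 genes was not called with both scalings, and the wider Ebf3 domain changed by -0.52 by depth (adjusted p = 0.00679) and 0.01 with TMM (adjusted p = 0.993). In all, 3 of the 5 domains over Lrmda were lower with both scalings, with the largest at -2.90 ± 0.28, and all 3 over Clybl. Over listed transcription factor genes 3 of 212 domains were higher with both scalings (1.42%, against 2.17% of all broad domains). By list, the 12 decreases were 6 of 25 domains for Zic, Gli and other zinc finger genes, 3 of 23 for AP-2, Ebf and nuclear receptor factors, 2 of 16 for forkhead genes (both Foxp4) and 1 of 59 for other homeobox genes. No domain of the Hox, T-box, Gata, LIM homeodomain, bHLH or Sox lists was called with both scalings at E12.5 (Atoh8, a bHLH factor, is not in that list).

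The 14 domains that were higher in the KO at E12.5 included MGE genes and the miR-9 loci. Nkx2-1 (chr12:56501401-56544800) gave 24.1, 37.8 and 25.1 counts per kb in WT and 39.1, 77.1 and 83.1 in KO. All 3 KO libraries lay above all WT libraries, and the log2 change was 1.19 ± 0.19 (adjusted p = 1.62e-07 by edgeR, 1.72 with TMM). The neighbouring domain, without a gene and 44.1 kb from Nkx2-1 (chr12:56444601-56487800), changed by 1.18 ± 0.25, from 5.90, 11.4 and 8.34 to 7.74, 28.0 and 23.1, where KO 1 overlapped WT. Dlx1 and Dlx2, homeobox genes of GABAergic progenitors, shared a domain (chr2:71517001-71555400) with 76.3, 60.7 and 61.4 in WT and 82.1, 107 and 109 in KO, a log2 change of 0.59 ± 0.18 (adjusted p = 0.00869, without overlap). This call was lost without E12.5 WT 2, WT 3 or KO 2. KO 1 was the lowest of the KO libraries in all 3 of these domains.

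Of the 15 domains of ventral telencephalon regulators, 2 (Nkx2-1 and Dlx1 with Dlx2) were higher and none lower with both scalings. By depth but not with TMM Six3, a homeobox gene of the anterior forebrain, was lower (-1.01, adjusted p = 2.09e-06, 0.0649 with TMM). With TMM factors 6 of the 15 were higher, Nkx2-1 and Dlx1 with Dlx2 included, against 58 of all 646 (8.98%) and 4.01% of all regions. Lhx6, a marker of postmitotic MGE cells, had a change of 0.12 by depth (adjusted p = 0.511) and 0.64 with TMM (adjusted p = 0.024), where it was called higher as with DESeq2, at 112 ± 3.94 in WT and 122 ± 26.7 in KO (SD, n = 3). The 11 domains of cortical glutamatergic regulators had 3 lower by depth (Lhx2 at -0.90, Neurog1 at -0.68 and Emx2 at -0.67) and none with both scalings. These counts are descriptions of lists, not tests of them.

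All 3 miR-9 genes lay in or beside a broad domain that was higher in the KO at E12.5, a grouping noticed after the values were seen. Mir9-1 lies in a domain that also overlaps Rhbg, an ammonium transporter gene (chr3:88191001-88249400), with 30.3, 26.5 and 24.1 counts per kb in WT and 41.9, 65.2 and 50.7 in KO. The groups did not overlap, and the log2 change was 0.97 ± 0.20 (adjusted p = 0.000106 by edgeR). Mir9-3 lies in a domain without a protein-coding gene (chr7:79493601-79523800) with a mean of 11.5 ± 2.46 in WT against 18.8 ± 2.61 in KO (SD over 3 libraries), a change of 0.71 ± 0.29 (adjusted p = 0.0415), which held in 11 of 16 alternatives and was lost with DESeq2 and without E12.5 WT 3, KO 1, KO 2 or KO 3. The adjoining domain over the rest of its host transcript Mir9-3hg changed by 0.92 ± 0.26 (adjusted p = 0.00538). Mir9-2 lies 2.4 kb outside a domain over the lncRNA C130071C03Rik (chr13:83710401-83736400), which changed by 0.91 ± 0.29 (adjusted p = 0.0127), from 7.76, 9.87 and 8.71 to 15.0, 16.8 and 17.9, and was lost without KO 2 or KO 3. In these 4 domains the genotypes did not overlap at E12.5 (0.38% of all regions were higher without overlap), and at E15.5 none was called.

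**Figure D4:**
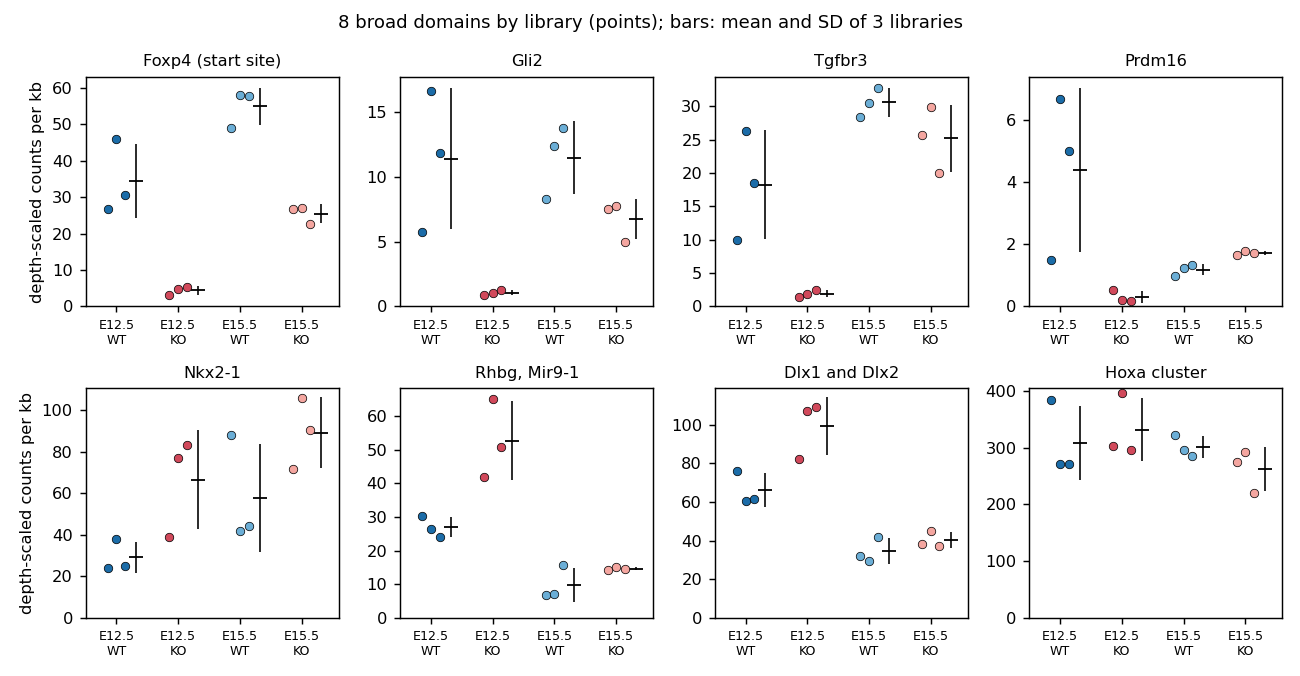
Depth-scaled counts per kb in each of the 12 libraries (points) for 8 broad domains, with the mean and SD of the 3 libraries of a group (bars). At E12.5 the Foxp4, Gli2, Tgfbr3 and Prdm16 domains are lower in every KO library than in any WT library, the Nkx2-1, Rhbg and Dlx domains are higher, and the Hoxa groups overlap.

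At E15.5 fewer broad domains differed between the genotypes. With depth 7 were lower and 20 higher in the KO, against 0.507% and 1.14% of all 2367 regions, with TMM factors 20 and 30, against 1.52% and 2.7%, and with DESeq2 22 and 30, against 2.03% and 3.21%. The median log2 change of the domains was -0.02 and that of all regions 0.00. All 7 lower domains and 16 of the higher ones held with both scalings, against 0.507% and 0.929% of all regions. The number lower was 11 without E12.5 KO 1, 2 without E12.5 KO 3, 3 without E15.5 KO 3 and 4 without E15.5 WT 3. The number higher was 40 and 5 without E12.5 KO 1 and KO 3, 12 without E15.5 KO 1, KO 2 or KO 3 in turn, and 10 without E15.5 WT 2.

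Without regard to the test, the 3 KO libraries lay below the 3 WT libraries in 7.77% of all regions and above them in 13.4%, which is the background for groups that do not overlap at E15.5. The 7 lower domains at E15.5 were all among the 228 lower at E12.5 by depth (3.07% of those). This overlap was not counted over all regions, of which 39.6% were lower at E12.5 by depth. The Foxp4 start-site domain gave 49.1, 58.0 and 57.8 counts per kb in E15.5 WT and 26.8, 27.1 and 22.6 in E15.5 KO, without overlap, a log2 change of -1.11 ± 0.21 (adjusted p = 0.000163 by edgeR). Emx2, a homeobox gene of the dorsal telencephalon (chr19:59443001-59480800), gave 56.7, 70.5 and 84.8 in WT and 44.0, 42.4 and 41.2 in KO, a change of -0.74 ± 0.17 (adjusted p = 0.00377), which was lost without E15.5 WT 3. At E12.5 its values had been 142, 124 and 115 in WT and 69.4, 76.5 and 92.6 in KO, a change of -0.67 by depth (adjusted p = 0.00127) and -0.15 with TMM (adjusted p = 0.57). Meis2, a TALE homeobox gene, changed by -1.06 ± 0.27 and Ak8 by -1.05 ± 0.24. At E12.5 the Meis2 change was -1.07 by depth and -0.53 with TMM (adjusted p = 0.000924 and 0.0625 by edgeR). Lingo1, which encodes a neuronal leucine-rich repeat protein, had 2 domains at -0.92 and -0.90. The calls of Ak8, Meis2 and both Lingo1 domains were lost without E12.5 KO 3 and without E15.5 KO 3, those of Ak8 and the second Lingo1 domain also without E15.5 WT 2, and those of Meis2 and that Lingo1 domain also without E15.5 WT 3. The second Lingo1 call held in 9 of 16 alternatives. A domain without a protein-coding gene 14.1 kb from Lif (chr11:4286601-4325600) had the largest change at -1.78 ± 0.31, from 2.39, 3.61 and 5.33 to 1.64, 1.64 and 0.27, and its call was lost without E12.5 KO 3.

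The domains higher at E15.5 lay mostly inside genes or away from them. Of the 20, 10 were inside a gene without its start and 9 overlapped no protein-coding gene, against 186 and 92 of all 646 domains. Each KO library of this stage was deeper than each WT library. Relative to the mean, KO depths were 0.687, 0.830 and 1.33, and WT depths 0.289, 0.498 and 0.577. Over the 16 higher domains called with both scalings, KO intervals covered a median of 76.5% of the width and WT intervals 38.5%. Over all 646 domains these medians were 68.4% and 59.9%. The part of depth and called length in these increases was not tested. Map3k20, a stress-activated kinase gene (chr2:72403201-72442000), gave 0.802, 1.40 and 0.625 counts per kb in WT and 5.63, 5.46 and 4.46 in KO, without overlap, a log2 change of 2.45 ± 0.39 (adjusted p = 6.38e-06 by edgeR). Prkch, which encodes a protein kinase C, changed by 1.91 ± 0.35, Nhsl1 by 1.52 ± 0.35 (lost with DESeq2 and without E12.5 KO 3 or E15.5 WT 3) and Kiz, a centrosomal protein gene, by 1.28 ± 0.25. Of the 20, 6 were also higher at E12.5, which is 42.9% of the 14 there: Kiz, a Pax5 domain away from the start, the domain beside Nkx2-1 and 3 others without a protein-coding gene. This overlap was not counted over all regions either, of which 0.591% were higher at E12.5 by depth. The Kiz call at E12.5 (0.54, adjusted p = 0.0452) held in 5 of 16 alternatives, and at E15.5 in all 16. The Pax5 domain (chr4:44503601-44541400) averaged 11.3 ± 1.78 counts per kb in the E15.5 WT libraries against 25.3 ± 0.944 in KO (SD, n = 3 each), a change of 1.17 ± 0.25 (adjusted p = 0.00153). For Nkx2-1 itself the change at E15.5 was 0.63 ± 0.19 (adjusted p = 0.0578), with E15.5 WT 1 at 87.9 against 41.6 and 44.1 in the other WT libraries and 71.7, 106 and 90.2 in KO. It was called in 8 of 16 alternatives, among them the fit without E15.5 WT 1.

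The genotype effect differed between the stages in 78 domains (12.1%), all with a more positive change at E15.5, against 6.21% of all regions. With TMM factors 28 were more positive and 4 more negative, against 1.94% and 0.211%, and those 28 were called with both scalings. By depth 0 were more negative by edgeR, with 4 at an unadjusted p under 0.05, and DESeq2 called 7 more negative and 26 more positive, against 0.591% and 1.99%. The number more positive was 37 without E12.5 WT 2, 133 without E12.5 WT 1, 50 without E12.5 KO 1, 209 without E12.5 KO 3, 44 without E15.5 WT 1 and 50 without E15.5 KO 1. Several of the domains that fell most at E12.5 were among the 78. In Tgfbr3 the E15.5 values were 28.5, 30.5 and 32.8 counts per kb in WT and 25.6, 29.9 and 19.9 in KO, and the difference of the log2 changes was 3.00 ± 0.33 (adjusted p = 3.62e-13 by edgeR). For the Foxp4 start-site domain it was 1.87 ± 0.30 (adjusted p = 6.5e-07), with the KO still below WT at E15.5.

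Stage was compared within each genotype. In WT, 244 domains were lower at E15.5 than at E12.5 and 33 higher by depth, against 45% and 2.75% of all regions, while TMM factors gave 123 and 182, against 22.4% and 17%. DESeq2 gave 99 and 241, against 18% and 21.5%. TMM moved the median of all regions from -0.62 to -0.09 and that of the domains from -0.29 to 0.21. With both scalings 123 were lower and 33 higher, against 22.4% and 2.75%. In KO the counts were 99 lower and 106 higher by depth, against 8.37% and 9.93%, 122 and 138 with TMM, against 16.6% and 16.8%, and 92 and 98 with both, against 8.07% and 9.59%. DESeq2 gave 114 and 142 in KO, against 15.8% and 17.2%. The lower count in KO was 64 without E12.5 KO 3 or without E15.5 KO 3, and 149 without E12.5 KO 1. The E15.5 tissue was dissected under fluorescence and the E12.5 tissue was not, so stage and dissection cannot be told apart. Relative to the mean, depth was 0.451, 2.69 and 1.85 in E12.5 WT and 0.289, 0.498 and 0.577 in E15.5 WT. Over the 123 lower domains, intervals covered a median of 79.6% of the width in E12.5 WT and 45.1% in E15.5 WT. Over the 33 higher ones these medians were 64.5% and 72.5%, and over all 646 domains 78.9% and 59.9%. The part of depth and called length in the WT stage changes was not tested. The libraries of the stages did not overlap in 54% of all regions (lower) and 4.56% (higher) in WT, and in 12.6% and 15% in KO.

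Among the broad domains, much of the decrease with stage was found in both genotypes. The overlap was not counted over all regions, so it describes these domains only. Of the domains called with both scalings, 65 were lower at E15.5 in WT and in KO, which is 52.8% of those in WT and 70.7% of those in KO. The largest was a domain without a protein-coding gene over the lncRNA D130051D11Rik (chr15:85638401-85681400). It gave 49.4, 42.2 and 43.8 counts per kb in E12.5 WT and 54.2, 76.1 and 82.7 in E12.5 KO, and 0.804, 1.40 and 1.65 in E15.5 WT and 2.40, 2.91 and 3.95 in E15.5 KO. The stages were far apart in both genotypes, with log2 changes of -5.07 ± 0.26 in WT and -4.51 ± 0.24 in KO (adjusted p = 2.41e-42 and 3.88e-41 by edgeR). Cacna2d1, a calcium channel subunit, changed by -2.95 in WT and -2.73 in KO, 1 of the 3 Skap2 domains by -2.78 and -2.59, and a Bcas3 domain by -2.97 and -2.07.

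Of the 15 domains of ventral telencephalon regulators, 2 were lower and 4 higher at E15.5 in WT with both scalings, and 4 lower and 4 higher in KO, against 123 lower and 33 higher in WT and 92 and 98 in KO of all 646. Among the lower, Gsx2, a homeobox gene of the ganglionic eminences, went from 33.8, 43.2 and 31.8 counts per kb in E12.5 WT to 6.28, 7.78 and 18.9 in E15.5 WT, and from 43.4, 42.2 and 67.2 to 12.9, 15.7 and 9.99 in KO. The stages did not overlap in either genotype, and the log2 changes were -1.70 ± 0.25 and -1.99 ± 0.24 (adjusted p = 5.47e-09 and 4.17e-12 by edgeR). Sp9, a zinc finger factor of interneuron progenitors, changed by -0.88 and -0.76 and was called with both scalings. Dlx1 with Dlx2 changed by -0.93 in WT and -1.31 in KO, where the KO call held with both scalings and the WT call with depth alone. Dlx5 with Dlx6 changed by -1.11 in KO, with both scalings. The miR-9 domains were lower as well in KO, with changes of -1.85 ± 0.21 for Mir9-1 and -1.66 ± 0.30 for Mir9-3. In WT the Mir9-1 change was -1.45 ± 0.21 (adjusted p = 5.94e-09), and the Mir9-3 change of -0.68 did not pass (adjusted p = 0.0508), with E15.5 WT 3 at 16.1 against 2.52 and 2.39.

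Other genes increased with stage. Of the 33 WT increases with both scalings, 29 were also higher in KO (29.6% of the 98 there). This overlap was likewise not counted over all regions. Kcnq1, a potassium channel gene in an imprinted region, had a domain (chr7:143337801-143392200) with 8.55, 24.3 and 13.8 counts per kb in E12.5 WT and 43.1, 38.6 and 34.0 in E15.5 WT, and with 1.80, 5.56 and 5.79 in E12.5 KO and 48.5, 54.1 and 47.2 in E15.5 KO. The stages did not overlap, and the log2 changes were 1.30 ± 0.22 in WT and 3.50 ± 0.24 in KO (adjusted p = 5.32e-07 and 1.62e-29 by edgeR). Cdhr3, a cadherin-related gene, changed by 1.59 in WT and 3.32 in KO, Six3 by 0.92 and 1.55, and the larger Lingo1 domain by 1.28 and 2.17. In the E12.5 KO libraries the intervals covered a median of 40.6% of the 98 domains that rose in KO, against 75.0% in E15.5 KO. In WT, Nkx2-1 changed by 0.99 ± 0.19 (adjusted p = 1.24e-05), and its change in KO was 0.43 ± 0.19 (adjusted p = 0.107). Of the 12 LIM homeodomain domains none was called in WT with both scalings (by depth 1 was lower and none higher, with TMM factors 8 were higher), and 3 were higher in KO with both, against 98 of all 646 (15.2%).

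**Figure D5:**
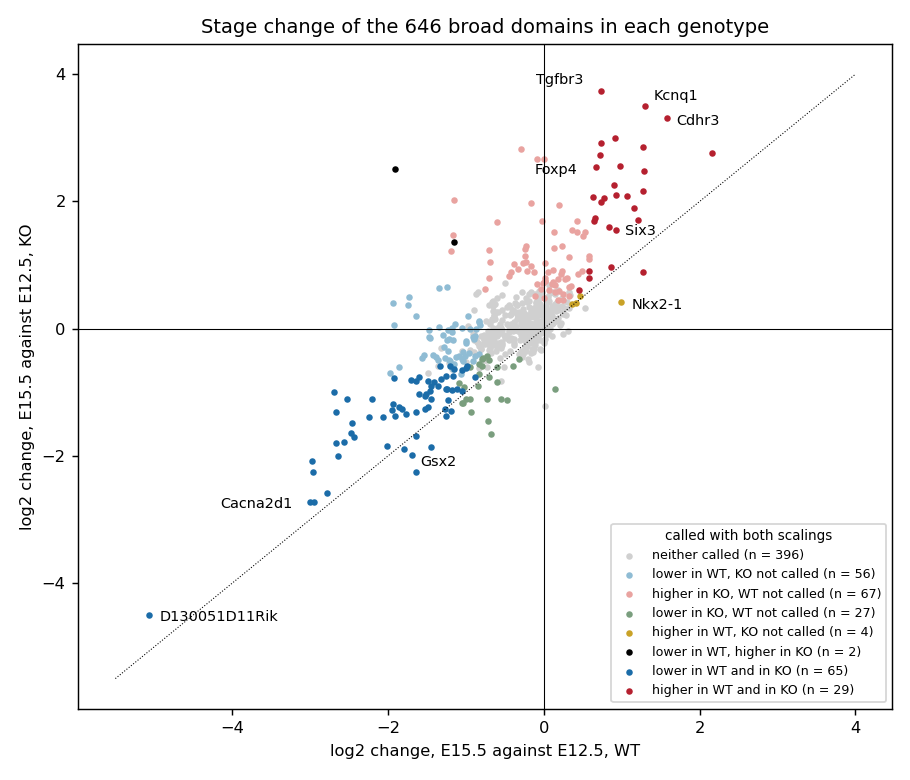
Log2 change from E12.5 to E15.5 of each broad domain in WT (x axis) and in KO (y axis), with equal change on the dotted line. Colours show calls with both scalings: 65 domains are lower and 29 higher in both genotypes, and 67 are higher in KO without a call in WT.

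The 2 domains over Prdm16 and Lrmda named here moved in opposite directions with stage, lower in WT and higher in KO with both scalings. Of the 4 Prdm16 domains, 2 were lower and 0 higher in WT, and 1 was lower and 2 higher in KO. Of the 5 Lrmda domains, 2 were lower and 2 higher in WT, and 1 was lower and 4 higher in KO. The Prdm16 domain gave means of 4.39 and 1.18 counts per kb in WT and 0.305 and 1.71 in KO, with log2 changes of -1.91 ± 0.38 and 2.51 ± 0.43 (adjusted p = 2.07e-05 and 5.9e-07 by edgeR). The Lrmda domain (chr14:22409601-22458800) gave 14.5 and 6.50 in WT and 1.95 and 5.05 in KO, with changes of -1.15 ± 0.26 and 1.37 ± 0.27. The stage by genotype term was called for both, at 4.42 ± 0.57 and 2.52 ± 0.38 (adjusted p = 5.7e-10 and 1.76e-07). No window of this Prdm16 domain was covered in all 12 libraries. Its covered share was 18.6% to 100% in E12.5 WT and 10.7% to 17.5% in E15.5 WT. In KO it was 1.69% to 12.4% at E12.5 and 22.6% to 31.6% at E15.5. The part of called length in these changes was not tested.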

How the data were processed

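H3K27me3 CUT&Tag intervals of 12 libraries (3 per group) were used. The submitters' processing notes name cutadapt, Bowtie2, SAMtools, Picard, deepTools and SICER with GRCm38 (mm10), and settings and versions are not given in the sources used here. Each deposited list gives intervals on a grid of 200 bp with at least 800 bp between them, the read count of each interval (counts, not normalized) and a score. The deposited score matched minus the natural log of the Poisson mass at the count, with a single rate in each library, and that rate was taken as the depth per window. Autosomal counts in intervals ranged from 570378 to 6802137 per library.

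Overlapping or touching intervals were merged, and counts were summed per union region. edgeR 4.0.16 (quasi-likelihood test, R 4.3.3) was fitted on 2367 regions with 4 groups and library sizes in proportion to depth, at a Benjamini-Hochberg adjusted p of 0.05, and SE is the log2 change divided by the square root of F. TMM factors and DESeq2 1.42.0 were alternatives, with a mean count minimum of 100, regions covered within 1.5-fold, a replicate block, each library left out, and other widths and merging rules. Of 200 regions changed 2-fold in simulated data, 65.5% were recovered at E12.5, 60% at E15.5, 24% for the difference between stages, and 60% and 68.5% for stage in WT and KO. False calls numbered 3, 6, 1, 3 and 4 in the same order. The simulated counts used the depths of the fit and had no interval calling, so these shares need not hold for the deposited counts. Domains named in the text were those with the largest called changes of each comparison and the members of gene lists, and others were named after their values were seen. The members and lists were chosen with earlier results of these data known. Gene positions, promoters and microRNAs came from RefSeq tables (GRCm38.p6). The heterozygous samples were not analysed here.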

Additional observations from a re-analysis of the deposited data

Results flagged for a closer look

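In the 8 broad domains with the largest difference between the stages, the log2 change in KO against WT differed between E15.5 and E12.5 by edgeR's test of the difference itself. The difference (E15.5 minus E12.5) was 4.42 for Prdm16, 3.17 for Rora, 3.11 for Smyd3, 3.00 for Tgfbr3, 2.75 for the gene-body domain of Foxp4, 2.66 for Gli2, 2.65 for Zfhx3 and 2.52 for Lrmda. By depth the KO was lower at E12.5 in each of them and was not called at E15.5. With TMM factors the Gli2 domain was called lower at E15.5 as well (-0.81, adjusted p = 0.0401 by edgeR), and its groups did not overlap there. The difference between the stages was called with TMM factors in 7 of the 8 and not in the Foxp4 domain (adjusted p = 0.0739). These domains were chosen for the size of the difference, so the values describe them and are no separate evidence. The Prdm16 domain had the lowest level of all broad domains and no window covered in all 12 libraries. The Foxp4 start-site domain, with a change of -2.98 at E12.5, had a difference of 1.87 and was still called lower at E15.5.

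Chromosome X was outside the autosomal rule. It held 2692 union regions, of which 28 had an interval in all 12 libraries and 9 of those were at least 20 kb wide.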

How the results depend on the processing

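The number of broad domains was 366 at a width of at least 30 kb, and 549 to 658 when the rule left out 1 library. Counts are given as lower and higher domains. For E12.5 KO against WT, 228 and 14 became 67 and 58 with TMM factors and 59 and 83 with DESeq2. For E15.5 KO against WT, 7 lower became 20 with TMM and 22 with DESeq2. For the difference between stages, 0 and 78 became 4 and 28 with TMM and 7 and 26 with DESeq2. For stage in WT, 244 and 33 became 123 and 182 with TMM and 99 and 241 with DESeq2. Among the 97 domains whose covered length varied within 1.5-fold, the counts were 5 and 0 at E12.5, 0 and 0 at E15.5, 0 higher for the difference, 19 and 4 for stage in WT and 16 and 10 for stage in KO. Fewer domains were tested in that fit, and the shares differed too. At E12.5, 5 of 97 were lower, against 228 of 646 (35.3%) in the main fit. At E15.5 none of the 97 was called, against 7 lower and 20 higher of 646. For stage in KO, 16 of 97 were lower and 10 higher, against 99 (15.3%) and 106 (16.4%) of 646. With 1 library left out, the ranges of lower and higher were 91 to 326 and 4 to 23 at E12.5, 2 to 11 and 5 to 40 at E15.5, 0 to 3 and 37 to 209 for the difference, 174 to 294 and 23 to 46 for stage in WT, and 64 to 149 and 78 to 127 for stage in KO. Deviations from the group means correlated at -0.297 to 0.255 in 18 same-number pairs of libraries (6 above 0.1). The 36 other pairs gave -0.213 to 0.260, so these values cannot settle whether replicate numbers pair the libraries. A replicate block moved the E15.5 higher count from 20 to 33, the E12.5 lower count from 228 to 248 and the count for the difference from 78 to 115. The lower count for stage in KO went from 99 to 97. A set of 89 named domain changes was followed through the alternatives. It held up to 8 of the largest called changes per comparison and direction, without overlap where groups were compared directly. It also held the genotype changes of the Hox, Nkx2-1, Lhx6, Foxp4 and Dlx domains, called or not. Weaker named changes were outside it, such as the E12.5 call of Kiz, which held in 5 of 16 alternatives. Of 1434 alternatives of these 89 changes, 1366 kept direction and call, 41 lost the call, 18 gained it and 9 turned direction, none of the 9 a called change. These were the E12.5 changes of Hoxd (-0.0397), Hoxa (-0.0378), Hoxb (-0.0167), Hoxc (-0.0746) and Hoxb13 (-0.0716) without E12.5 KO 2, of Hoxb13 (-0.0049) and Hoxc (-0.0035) without E12.5 WT 3 (with 1 library left out the highest of these 5, without E12.5 WT 1, were Hoxd 0.250, Hoxa 0.296, Hoxb 0.313, Hoxc 0.230 and Hoxb13 0.196, and with DESeq2 they were 0.666 to 0.721), and of Dlx3 with Dlx4 with TMM (0.245) and DESeq2 (0.303). The cause of the differences between settings was not tested. E15.5 WT 1 had the lowest depth and the shortest covered length.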

Other observations

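Some genes carried several separate broad domains. Of the 907 protein-coding genes overlapped, 867 had 1 domain, 40 had at least 2 and 6 had at least 3: Lrmda with 5, Prdm16 with 4, and Gli2, Clybl, Grik3 and Skap2 with 3 each. Domains of 1 gene did not all move alike. Of the 5 Lrmda domains 3 were lower at E12.5 in the KO with both scalings, with changes of -2.07, -2.90 and -1.90, and the remaining pair changed by -0.02 and -0.25. Of the 3 Skap2 domains, which lie beside the Hoxa cluster, the middle one changed by -2.78 from E12.5 to E15.5 in WT and the others by 0.06 and -0.16.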
